A study of Mus musculus with 12 samples.

Results

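Serpinb1a, Ctsc and Cst7 encode a protease of neutrophil granules and inhibitors that act on granule or lysosomal proteases, and their transcripts were followed in blood neutrophils of mice given lipopolysaccharide (LPS) or saline. They are 3 of the 9374 genes in the deposited table, found there by their NCBI Gene IDs, which are 66222 for Serpinb1a, 13032 for Ctsc and 13011 for Cst7. The 3 genes were chosen from measured values, with earlier results of these same libraries known, in which each of them stood out after LPS in WT or in KO-labelled libraries. Their LPS differences, and the genotype differences that use the same libraries, are therefore given as a description with no test.

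Neutrophils came from the blood of female mice of a line named Hmgb1ΔMye, whose libraries carry the label KO, and of wild-type (WT) mice. Mice of both lines received LPS, a bacterial outer membrane component, at 0.5 mg/kg or saline, and cells were isolated after 16 hours. That gave 4 groups of 3 libraries: KO-LPS, KO-Saline, WT-LPS and WT-Saline. ΔMye is a name for loss of a gene in myeloid cells; the sources used here give neither the Cre driver nor the age of the mice. Nothing in the labels tells whether libraries of one group are from different mice, so errors and p-values cover the spread between the deposited samples alone, which may be technical.

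Azurophil granules are the first granules formed during neutrophil development in bone marrow, and the serine proteases they store, neutrophil elastase, cathepsin G and proteinase 3, are made mainly by promyelocytes and not by mature blood cells. Cathepsin C (Ctsc, dipeptidyl peptidase I) is a lysosomal cysteine protease that removes a short propeptide from these serine proteases and so activates them. Cystatin F (Cst7) is a cystatin of immune cells that is sorted to lysosomes and granules, where it inhibits cysteine cathepsins, cathepsin C among them once it has been processed. Serpinb1a, a mouse counterpart of human SERPINB1, is a clade B serpin that inhibits elastase, cathepsin G and proteinase 3, and it is a protein of the cytosol rather than of the granule.

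In the gene annotation for mm10, GENCODE M21, Ctsc lies on the plus strand of chromosome 7 at 88278085 to 88310888, Cst7 on the plus strand of chromosome 2 at 150570415 to 150578944 and Serpinb1a on the minus strand of chromosome 13 at 32842092 to 32851185. Exons of the 3 genes overlapped no exon of another gene on either strand. Of the 50-base windows in their transcripts, 28 of 5804 for Ctsc, 0 of 937 for Cst7 and 64 of 2277 for Serpinb1a also occur in transcripts of other genes. For Serpinb1a these were its paralogs Serpinb1b, Serpinb1c and Serpinb1-ps1, so a small part of its reads could be shared with them.

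RefSeq promoter sequences on GRCm38.p6 were matched for 2 of the 3 genes and are shown because both genes had few or no reads after saline and reads in every library after LPS. Each runs from 250 bases before to 50 bases after the annotated start, at chr7:88277835-88278134 for Ctsc and at chr2:150570165-150570464 for Cst7, both on the plus strand. Capitals mark the motif matches named after the sequences.
Ctsc: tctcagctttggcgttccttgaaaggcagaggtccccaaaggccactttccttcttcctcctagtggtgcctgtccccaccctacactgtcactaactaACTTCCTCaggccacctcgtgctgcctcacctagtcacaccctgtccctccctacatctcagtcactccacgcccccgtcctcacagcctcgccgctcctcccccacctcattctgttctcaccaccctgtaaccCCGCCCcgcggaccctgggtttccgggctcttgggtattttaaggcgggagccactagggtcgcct
Cst7: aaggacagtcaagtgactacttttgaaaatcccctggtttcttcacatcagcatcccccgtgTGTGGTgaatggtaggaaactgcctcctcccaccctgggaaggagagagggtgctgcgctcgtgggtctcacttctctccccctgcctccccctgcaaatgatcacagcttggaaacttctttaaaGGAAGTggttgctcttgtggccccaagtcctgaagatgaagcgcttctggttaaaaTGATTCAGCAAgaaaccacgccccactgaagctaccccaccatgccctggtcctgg

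Motifs were searched on both strands. For factors of the ETS family they were the PU.1 core GAGGAAGT and the shorter ETS core GGAAGT. For C/EBP factors the search used TTGCNNAA, which is part of their consensus, for AP-1 TGANTCA and for RUNX factors TGTGGT. The general promoter elements were the box bound by Sp1, GGGCGG, and the TATA box, TATAAA. Positions are counted from the annotated start, as the first base of a match in the printed sequence. The Ctsc promoter held GAGGAAGT on the other strand at -151, a string found in 3.20% of 32851 promoters of the same length. The ETS core lies inside that match. It also held GGGCGG on the other strand at -16, found in 35.7% of promoters. The Cst7 promoter held TGTGGT at -188, found in 16.8% of promoters, and GGAAGT at -62, found in 23.8%. It held TGANTCA at -6, found in 7.81% of promoters, and TTGCNNAA on the other strand at -3, found in 10.8%, and these 2 matches overlap. TATAAA, found in 13.6% of promoters, was in neither window. A match is a description of the letters and was not tested as a site.

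Depth limits all values of these genes. The table gave log2 CPM, reads per library scaled to one common total, from which whole reads were recovered, and the libraries held 399702 to 526757 reads. A library with 0 reads of a gene allowed up to 5.58 to 8.003 CPM, taking 3 reads as the limit, and intervals and limits cover counting error only. Hmgb1 was not lower in the KO-labelled libraries, with 101 reads against 100 in WT libraries, a ratio of 1.15 (95% counting interval 0.867 to 1.54), so its reads do not bear out the KO label and "KO-labelled" is used throughout. The values are per gene and do not tell the exons of Hmgb1 apart. Its exons overlap Uspl1 on the other strand by 42 bases and Mm2pr on the same strand by 37 bases. The neutrophil transcripts S100a9 and S100a8 ranked 11 and 24 by mean reads, whereas Lyz2, the lysozyme of neutrophils and macrophages, had 0 to 19 reads a library. The library kit marks the strand of origin, but the strand setting of the counting is not given in the sources used here. Whether the reads listed for a gene lie on that gene's own strand was therefore not tested. In a bulk sample, a different mix of cells and a different amount of RNA per cell cannot be told apart.

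KO-LPS replicate 1 stood apart from the other KO-LPS libraries. Its summed level of 17 genes of specific granules, which are granules formed after the azurophil ones, was 4562 CPM, against 18889 and 18420 CPM in KO-LPS replicates 2 and 3 and 3801 to 4785 CPM in KO-Saline. Serpinb1a, Ctsc and Cst7 together had 50.7 CPM in it, against 141 and 133 CPM in replicates 2 and 3. The main comparisons of the 3 genes that rest on this library are given with and without it. So are the counts of gene lists in KO-labelled libraries that changed without it. Group means and levels per kb include it.

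Ctsc, the activating protease, had reads in every LPS library and in few saline libraries. Replicates 1, 2 and 3 gave 9, 15 and 12 reads in KO-LPS (24.01, 37.0 and 25.7 CPM), and 0 reads in each KO-Saline library. In WT-LPS they gave 9, 16 and 22 reads (21.3, 33.7 and 40.9 CPM), and in WT-Saline 4, 9 and 0 reads (9.68, 19.0 and 0 CPM). The LPS and saline groups did not overlap in either genotype, and WT-Saline was the saline group in which the transcript was seen. The mean was 28.9 ± 7.06 CPM in KO-LPS and 0 CPM in KO-Saline, and it was 32.0 ± 9.89 CPM in WT-LPS and 9.57 ± 9.51 CPM in WT-Saline (SD, n = 3 each).

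In KO-labelled libraries, the 36 Ctsc reads after LPS against 0 after saline made it at least 4.02-fold higher, taking the limit of 3 reads per library for the saline group, and at least 4.31-fold without KO-LPS replicate 1. The fitted difference, which depends on the 0.5 reads added to each value, was 4.62 ± 1.01 on the log2 scale (estimate ± SE). Without KO-LPS replicate 1 it was 4.74 ± 1.15. In WT libraries, 47 reads after LPS stood against 13 after saline, a ratio of 3.59 (95% counting interval 1.91 to 7.23), with a fitted log2 difference of 2.44 ± 1.01. One library weighed on the WT value: without WT-Saline replicate 3, which had 0 reads, the fitted difference was 1.11.

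Cst7, the cystatin, was close to absent from the reads after saline. Replicates 1, 2 and 3 gave 6, 19 and 20 reads in KO-LPS (16.0, 46.9 and 42.9 CPM), and 0, 0 and 1 reads in KO-Saline (0, 0 and 2.43 CPM). In WT-LPS they gave 6, 11 and 20 reads (14.2, 23.2 and 37.2 CPM), and in WT-Saline 1, 0 and 0 reads (2.42, 0 and 0 CPM). Every LPS library lay above every saline library in both genotypes, and replicate 1 was the lowest LPS library in each. The mean was 35.3 ± 16.8 CPM in KO-LPS and 0.811 ± 1.40 CPM in KO-Saline, and it was 24.9 ± 11.6 CPM in WT-LPS and 0.807 ± 1.40 CPM in WT-Saline (SD, n = 3 each).

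For Cst7 the pooled reads were 45 in KO-LPS against 1 in KO-Saline, a ratio of 45.2 (95% counting interval 7.72 to 1826). Without KO-LPS replicate 1 the ratio was 56.1 (9.49 to 2270). In WT-LPS there were 37 against 1 in WT-Saline, a ratio of 36.7 (6.19 to 1489). The intervals are wide because each saline group held a single read. The fitted log2 difference was 4.26 ± 0.995 in KO-labelled libraries, and 4.73 ± 1.14 without KO-LPS replicate 1. In WT libraries it was 3.99 ± 0.995.

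Serpinb1a, the serpin, had the most reads of the 3 genes, 145 over all libraries, against 96 for Ctsc and 84 for Cst7. Replicates 1, 2 and 3 gave 4, 23 and 30 reads in KO-LPS (10.7, 56.7 and 64.3 CPM), and 2, 5 and 1 reads in KO-Saline (5.25, 10.8 and 2.43 CPM). In WT-LPS they gave 25, 21 and 32 reads (59.3, 44.3 and 59.5 CPM), and in WT-Saline 0, 1 and 1 reads (0, 2.11 and 1.86 CPM). The WT groups lay far apart, while KO-LPS replicate 1 lay just below the highest KO-Saline library. The mean was 43.9 ± 29.0 CPM in KO-LPS and 6.18 ± 4.28 CPM in KO-Saline, and it was 54.3 ± 8.70 CPM in WT-LPS and 1.33 ± 1.15 CPM in WT-Saline (SD, n = 3 each).

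The Serpinb1a reads were 57 in KO-LPS against 8 in KO-Saline, a ratio of 7.16 (95% counting interval 3.40 to 17.4), and a fitted log2 difference of 2.44 ± 0.86. Without KO-LPS replicate 1, there were 53 reads against 8, a ratio of 9.52 (4.50 to 23.2), the difference was 3.22 ± 0.92, and the KO groups no longer overlapped, with KO-LPS wholly higher as for 21.6% of all genes without that library. In WT-LPS there were 78 reads against 2 in WT-Saline, a ratio of 38.7 (10.4 to 325), and a difference of 4.64 ± 0.86.

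**Figure D1:**
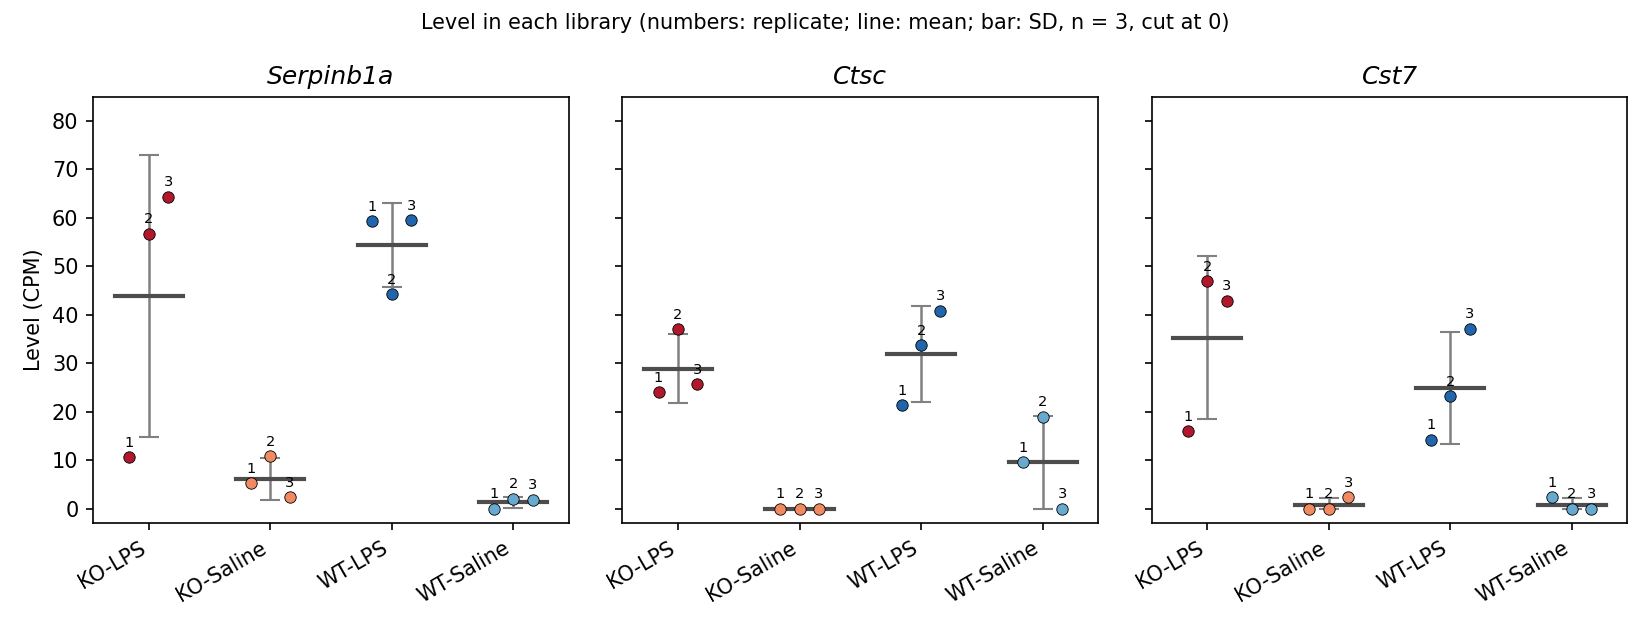
Level of Serpinb1a, Ctsc and Cst7 in CPM (vertical axis, linear) in each of the 12 libraries by group (horizontal axis). Points are libraries with their replicate number, the thick line is the mean and the bar is the SD of 3 libraries, stopped at 0; KO-LPS replicate 1 has 10.7 CPM of Serpinb1a, just below the 10.8 CPM of the highest KO-Saline library, and Ctsc is at 0 in all KO-Saline libraries.

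Over the 3 genes and 6 LPS libraries, reads were present in 18 of 18 values, with 300 pooled reads. Over the 6 saline libraries they were present in 9 of 18, with 25 pooled reads, namely in 5 of 6 for Serpinb1a, 2 of 6 for Ctsc and 2 of 6 for Cst7. A gene was called where limma's test over all 9374 genes gave a Benjamini-Hochberg adjusted p under 0.05. By that rule 2 of 3, Ctsc and Cst7, were called higher after LPS in KO-labelled libraries, where 1.99% of all genes were called higher, and Serpinb1a joined them without KO-LPS replicate 1, where 5.97% of all genes were called higher. In WT libraries 2 of 3, Serpinb1a and Cst7, were called higher, where 6.72% of all genes were. The LPS groups lay wholly above the saline groups for 2 of 3 in KO-labelled libraries, as they did for 9.67% of all genes, and for 3 of 3 in WT libraries, as they did for 16.5% of all genes. These contrasts chose the genes, so the counts are given beside the background only. The median log2 difference of all genes was 0.09 in KO-labelled and 0.06 in WT libraries.

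**Figure D2:**
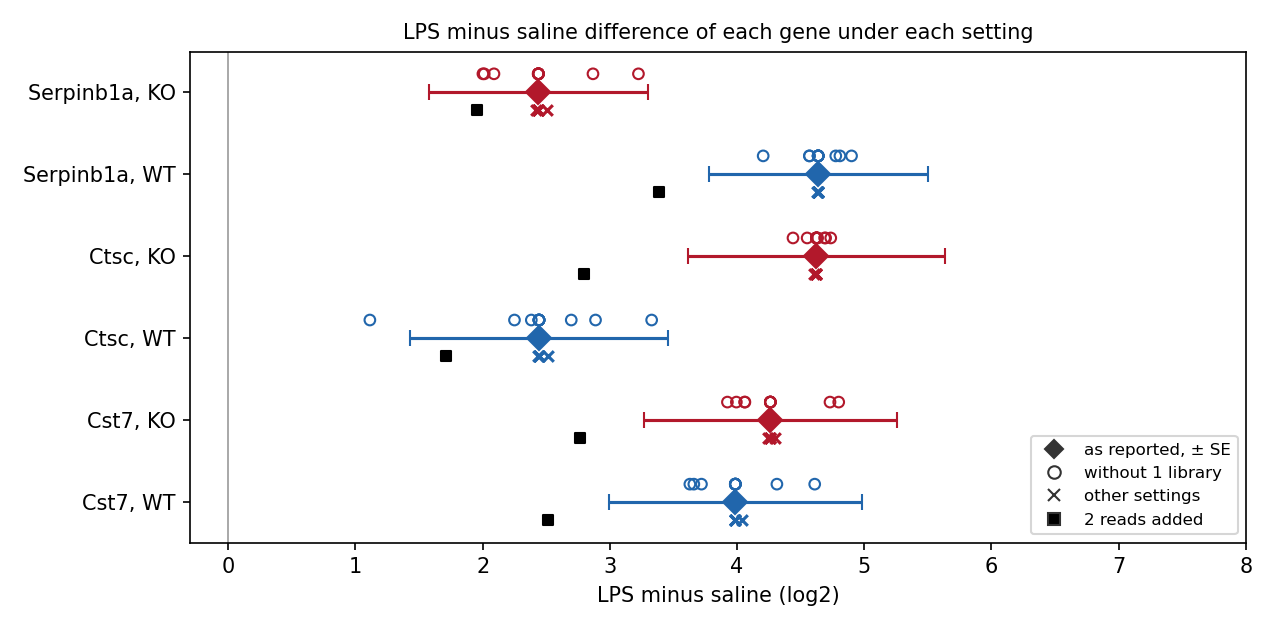
Fitted LPS minus saline difference on the log2 scale (horizontal axis) for each gene in KO-labelled (KO, red) and WT (blue) libraries. Diamonds with bars are the reported estimate ± SE and open circles leave out 1 library each. Crosses are the other settings and black squares have 2 reads added in place of 0.5. All lie above 0, and settings that cannot change an estimate lie at the value of its diamond. Ctsc in WT libraries is at 1.11 without WT-Saline replicate 3.

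The share that each gene took of the pooled reads of all 3 is given by group. The intervals pool the libraries and leave out the spread between them. Serpinb1a had 4 of 19 reads in KO-LPS replicate 1, against 23 of 57 and 30 of 62 in replicates 2 and 3. In KO-LPS, Serpinb1a had 41.3% of 138 reads (95% exact binomial interval 33.0% to 49.99%), Cst7 had 32.6% (24.9% to 41.1%) and Ctsc had 26.1% (19.0% to 34.2%). Without KO-LPS replicate 1 the shares were 44.5%, 32.8% and 22.7% of 119 reads, in the same order. In WT-LPS, Serpinb1a had 48.1% of 162 reads (40.2% to 56.1%), Ctsc had 29.0% (22.2% to 36.7%) and Cst7 had 22.8% (16.6% to 30.1%). The LPS groups were thus made up of all 3 transcripts in both genotypes. In KO-Saline, Serpinb1a had 88.9% of only 9 reads (51.8% to 99.7%) and Ctsc none, which allows up to 33.6%. In WT-Saline, Ctsc had 81.2% of 16 reads (54.4% to 96.0%) and Serpinb1a 12.5% (1.55% to 38.3%).

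**Figure D3:**
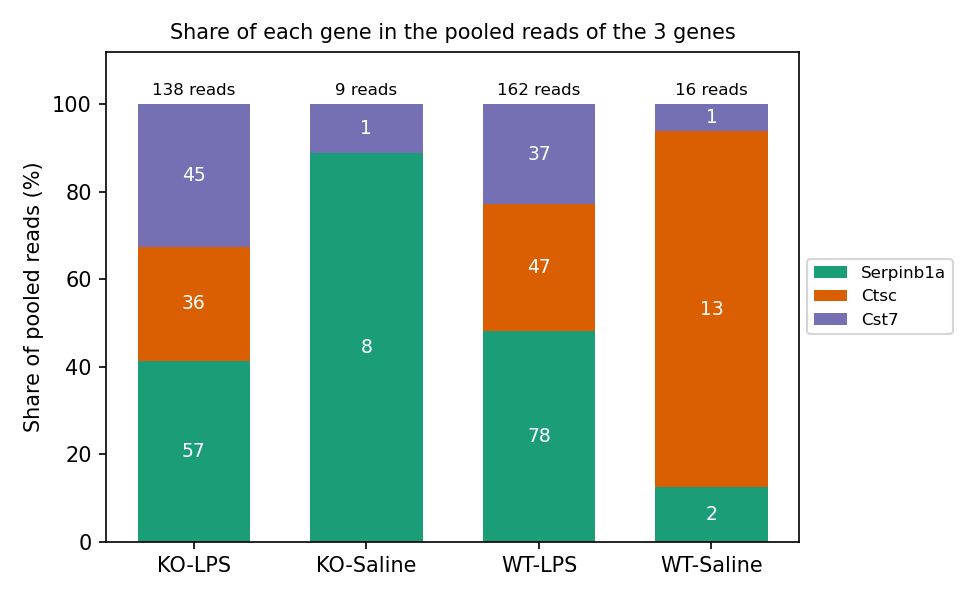
Share of each gene (vertical axis, percent) in the pooled reads of Serpinb1a, Ctsc and Cst7 in each group (horizontal axis), with the read numbers printed in the bars and above them. After LPS all 3 genes are present in both genotypes, with 138 reads in KO-LPS and 162 in WT-LPS; the saline bars rest on 9 reads in KO-Saline and 16 in WT-Saline.

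After LPS, with all libraries, the fitted difference between KO-labelled and WT libraries was smaller than its SE for each gene. A difference of either sign was therefore not resolved at this depth. Serpinb1a had 57 reads in KO-LPS against 78 in WT-LPS, a ratio of 0.841 (95% counting interval 0.587 to 1.198) and a fitted log2 difference of -0.62 ± 0.86. Without KO-LPS replicate 1 the ratio was 1.12 (0.773 to 1.60), so the side on which this gene fell was set by that library. Ctsc had 36 reads in KO-LPS against 47 in WT-LPS, a ratio of 0.881 (0.555 to 1.39) and a difference of -0.11 ± 1.01. Without KO-LPS replicate 1 the Ctsc ratio was 0.945 (0.566 to 1.55) and the difference 0.0007 ± 1.15. Cst7 had 45 against 37 reads, a ratio of 1.40 (0.886 to 2.22) and a difference of 0.46 ± 0.995. Without KO-LPS replicate 1 the Cst7 ratio was 1.73 (1.08 to 2.80), and its KO-LPS libraries then lay above its WT-LPS libraries, as they did for 10.7% of all genes. With all libraries the groups overlapped for each of the 3 genes, where 4.32% of all genes lay wholly higher in KO-LPS and 5.47% wholly lower.

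After saline, Serpinb1a and Ctsc were placed in opposite order by genotype, on very few reads. Serpinb1a had 8 reads in KO-Saline against 2 in WT-Saline, a ratio of 4.54 (95% counting interval 0.907 to 43.9) and a fitted log2 difference of 1.58 ± 0.86. Its groups did not overlap, which made 1 of 3 genes wholly higher in KO-Saline, as 5.82% of all genes were. Ctsc had 0 reads in KO-Saline against 13 in WT-Saline, which made it at least 1.27-fold lower in KO-Saline with the limit of 3 reads per library. Its groups overlapped, because WT-Saline replicate 3 also had 0 reads, and its fitted difference was -2.29 ± 1.01. That difference was -3.62 without WT-Saline replicate 3 and -1.41 without WT-Saline replicate 2. Cst7 had 1 read in each group, too few for a comparison at this depth.

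No call was made for the 3 genes in either genotype comparison. Over all genes, limma called 1 gene in saline (0.0107%), and 0 genes in LPS (0%) where 471 had an unadjusted p under 0.05 and limma with voom weights called 1. The gene called in saline was Ecm1, which was lower in KO-Saline and is named only because the count is so small. Subtracting the WT difference after LPS from the KO-labelled one gave -2.20 ± 1.22 for Serpinb1a, 2.18 ± 1.43 for Ctsc and 0.28 ± 1.41 for Cst7 on the log2 scale. Without KO-LPS replicate 1 it was -1.41 ± 1.24 for Serpinb1a, 2.29 ± 1.54 for Ctsc and 0.74 ± 1.53 for Cst7.

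In order of level, Ctsc was highest in WT-LPS, then KO-LPS, WT-Saline and KO-Saline, and the neighbours in this order overlapped except KO-LPS and WT-Saline. Cst7 was highest in KO-LPS, then WT-LPS, with overlapping libraries, and the saline groups, which also overlapped, lay below both. Serpinb1a was highest in WT-LPS, then KO-LPS, KO-Saline and WT-Saline, and of these neighbours the saline groups alone did not overlap.

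Levels of different genes were compared per kilobase of merged exon, which spans 5808 bases for Ctsc, 986 for Cst7 and 2303 for Serpinb1a. On that scale Cst7 had 35.8 CPM per kb in KO-LPS (above 84.3% of 9268 genes with a length) and 25.2 in WT-LPS (above 79.4%). Serpinb1a had 19.1 CPM per kb in KO-LPS (above 74.1% of genes) and 23.6 in WT-LPS (above 78.2%). In each KO-LPS library Cst7 lay above Serpinb1a per kb. In WT-LPS replicates 1, 2 and 3 Cst7 had 14.4, 23.5 and 37.7 CPM per kb and Serpinb1a had 25.7, 19.2 and 25.8, so their order differed between libraries. Ctsc had 4.98 CPM per kb in KO-LPS (above 44.0% of genes) and 5.51 in WT-LPS (above 47.4%). After saline all 3 lay low. Serpinb1a had 2.68 CPM per kb in KO-Saline and 0.576 in WT-Saline. Cst7 had 0.822 CPM per kb in KO-Saline and 0.818 in WT-Saline, and Ctsc had 0 in KO-Saline and 1.65 in WT-Saline.

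The genes whose log2 values followed each of the 3 most closely were ranked by Pearson's r over the 12 libraries, among genes with a mean of at least 10 reads per library. For Cst7 they were Map4 (r = 0.979), Prnp (0.963), Dpep2 (0.955), Cybb (0.9502) and Gpi1 (0.943). Cybb encodes the catalytic subunit of the phagocyte NADPH oxidase and is also one of the specific granule genes described with the other granule lists. For Serpinb1a they were Mvd (0.978), Qsox1 (0.974), Ankzf1 (0.971), D730005E14Rik (0.970) and Gucd1 (0.970). For Ctsc the likeness was looser, with Rgs19 (0.897), Haus1 (0.892), Tomt (0.884), Rps6ka1 (0.880) and Acap2 (0.872). All of these points share the same libraries and the same LPS contrast. Exons of Dpep2, Gpi1, Qsox1, Ankzf1, Gucd1, Haus1, Tomt and Rps6ka1 overlap those of another gene on the other strand, so their reads are uncertain. On the same strand, D730005E14Rik exons overlap Apobec3 by 676 bases and Prnp exons overlap Prn by 145 bases, so their reads are uncertain too.

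The nearest measured gene to any of the 3 was Apmap, 4.14 kb from Cst7 on the side of higher coordinates. Its log2 difference after LPS was 3.30 ± 0.98 in KO-labelled libraries (limma, adjusted p = 0.0592) and 1.38 ± 0.98 in WT libraries (adjusted p = 0.433), so it did not pass, and its exons overlap Gm14123 on the other strand. In KO-labelled libraries Apmap passed without KO-LPS replicate 1, with 3.72 ± 1.13 (limma, adjusted p = 0.0252). It also passed there without the mean-variance trend (limma, adjusted p = 0.0426). The next gene on the other side of Cst7, Zfp120, lay 433.7 kb away and did not pass. The measured neighbours of Ctsc, 2610206C17Rik and Tmem135, lay 3501 and 824.2 kb away and did not pass. The measured neighbours of Serpinb1a, Foxq1 and Serpinb6a, lay 1281 and 1065 kb away. Foxq1, a forkhead transcription factor, fell by 4.11 ± 0.96 in KO-labelled libraries (limma, adjusted p = 0.014) and by 5.19 ± 0.96 in WT libraries (adjusted p = 0.000457), and its exons overlap A530084C06Rik on the other strand. The KO call of Foxq1 was lost without KO-Saline replicate 3 or KO-LPS replicate 2 or 3 (adjusted p up to 0.0891), and the WT call held without each library in turn. Serpinb6a is described with the serpins.

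The substrates of cathepsin C came next. Of 11 listed granule serine proteases activated by it, 2 were in the table, Prss57 and Prtn3, and the other listed genes were not analysed here. Prss57, which encodes neutrophil serine protease 4, had 32, 42 and 63 reads in KO-LPS against 29, 29 and 18 in KO-Saline, and 50, 54 and 99 in WT-LPS against 20, 16 and 48 in WT-Saline. Its log2 difference was 0.82 ± 0.38 in KO-labelled libraries (limma, adjusted p = 0.256), and it rose by 1.34 ± 0.38 in WT libraries (adjusted p = 0.0171). The WT call was lost without WT-Saline replicate 1 or 2 or WT-LPS replicate 3, with adjusted p up to 0.122, and Prss57 exons overlap Fstl3 on the other strand. Prtn3, proteinase 3, did not pass, with a difference of 1.0004 ± 1.25 in KO-labelled libraries (adjusted p = 0.746). It had 7 reads in KO-LPS against 3 in KO-Saline, and 6 in WT-LPS against 8 in WT-Saline. Prtn3 exons overlap Plppr3 on the other strand by 159 bases.

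Few other contents of azurophil granules and lysosomes passed the test. Of 19 listed genes 16 were measured, and in KO-labelled libraries none rose and 1 fell (3 had an unadjusted p under 0.05), against 1.99% of all genes called higher and 1.35% called lower. In WT libraries 1 rose and 1 fell (6 had an unadjusted p under 0.05), against 6.72% called higher and 4.96% called lower of all genes. Without KO-LPS replicate 1, 1 rose and 1 fell in KO-labelled libraries. The unadjusted p was under 0.05 for 1612 of all 9374 genes in KO-labelled and 2288 in WT libraries. The list's median log2 difference was 0.22 in KO-labelled and 0.18 in WT libraries. Galns, a lysosomal sulfatase, rose in WT libraries, by 3.99 ± 0.98 (adjusted p = 0.00651, and 0.0521 without WT-Saline replicate 1), with 26, 22 and 47 reads in WT-LPS against 0, 5 and 2 in WT-Saline.

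Among the other cathepsins and legumain, most of them cysteine or aspartic proteases of lysosomes, 11 of 14 listed genes were measured. In KO-labelled libraries 1 rose and none fell (1 and 1 without KO-LPS replicate 1, where Ctsa fell), and in WT libraries 2 rose and 1 fell, with median log2 differences of 0.17 in KO-labelled and 0.31 in WT libraries. Ctsb, cathepsin B, had 51, 157 and 146 reads in KO-LPS against 28, 31 and 35 in KO-Saline, and 103, 117 and 118 in WT-LPS against 29, 23 and 65 in WT-Saline. It rose by 1.75 ± 0.35 in KO-labelled libraries (limma, adjusted p = 0.00478) and by 1.65 ± 0.35 in WT libraries (adjusted p = 0.00167), and its exons overlap Fdft1 on the other strand. The KO call of Ctsb was lost without KO-LPS replicate 2 or 3 (adjusted p up to 0.0829), and its KO difference was 2.20 ± 0.32 without KO-LPS replicate 1. Ctss, cathepsin S, rose by 3.34 ± 0.51 in WT libraries (adjusted p = 4.38e-05), with 52, 66 and 42 reads in WT-LPS against 8, 2 and 6 in WT-Saline. Ctsa, the serine carboxypeptidase cathepsin A, fell by 1.71 ± 0.36 in WT libraries (adjusted p = 0.00147), with 18, 18 and 31 reads in WT-LPS against 61, 66 and 90 in WT-Saline, and its exons overlap Neurl2 and Pltp on the other strand. These 2 WT calls and that of Ctsb held without each library in turn.

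Relatives of the inhibitors gave few calls. Of 14 other cystatins and stefins 4 were measured and none passed in either genotype, nor had any an unadjusted p under 0.05 or a call with voom weights, with median log2 differences of 0.43 in KO-labelled and 0.36 in WT libraries. Cst3, cystatin C, had a difference of 0.39 ± 0.31 in KO-labelled libraries (limma, adjusted p = 0.572) and of -0.46 ± 0.31 in WT libraries (adjusted p = 0.402). Stfa2l1, of the stefin A family whose near copies can share reads, had -0.28 ± 0.35 in KO-labelled (adjusted p = 0.739) and -0.62 ± 0.35 in WT libraries (adjusted p = 0.284).

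Of 18 other clade B serpins 1 was measured, Serpinb6a, which is known to inhibit cathepsin G. Its difference was -0.75 ± 0.38 in KO-labelled libraries (limma, adjusted p = 0.313), and it rose by 1.21 ± 0.38 in WT libraries (adjusted p = 0.0356). The WT call was lost without WT-Saline replicate 1 or 3 or any WT-LPS library (adjusted p up to 0.167), and its exons overlap Nqo2, Ripk1 and 1110046J04Rik on the other strand. Of 16 further inhibitors of serine proteases 6 were measured, of which 1 rose and none fell in KO-labelled libraries (1 and 1 without KO-LPS replicate 1, where Slpi fell by 1.26 ± 0.25) and 1 rose and 1 fell in WT libraries. Their median log2 difference was -0.15 in KO-labelled and -0.43 in WT libraries.

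Wfdc21, a gene of the WAP domain family, had 74, 109 and 115 reads in KO-LPS against 61, 49 and 25 in KO-Saline, and 92, 135 and 146 in WT-LPS against 11, 22 and 31 in WT-Saline. It rose by 1.21 ± 0.34 in KO-labelled libraries (limma, adjusted p = 0.0445) and by 2.59 ± 0.34 in WT libraries (adjusted p = 7.08e-06). The KO call was lost without WT-Saline replicate 2, any WT-LPS library, KO-Saline replicate 2 or 3, or KO-LPS replicate 2 or 3 (adjusted p up to 0.256). The WT call held without each library in turn. Slpi, the secretory leukocyte protease inhibitor that blocks elastase and cathepsin G, fell by 1.14 ± 0.30 in WT libraries (adjusted p = 0.0121), with 58, 88 and 127 reads in WT-LPS against 198, 145 and 238 in WT-Saline. That call was lost without WT-Saline replicate 1 or 3 or WT-LPS replicate 1 (adjusted p up to 0.0879).

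**Figure D4:**
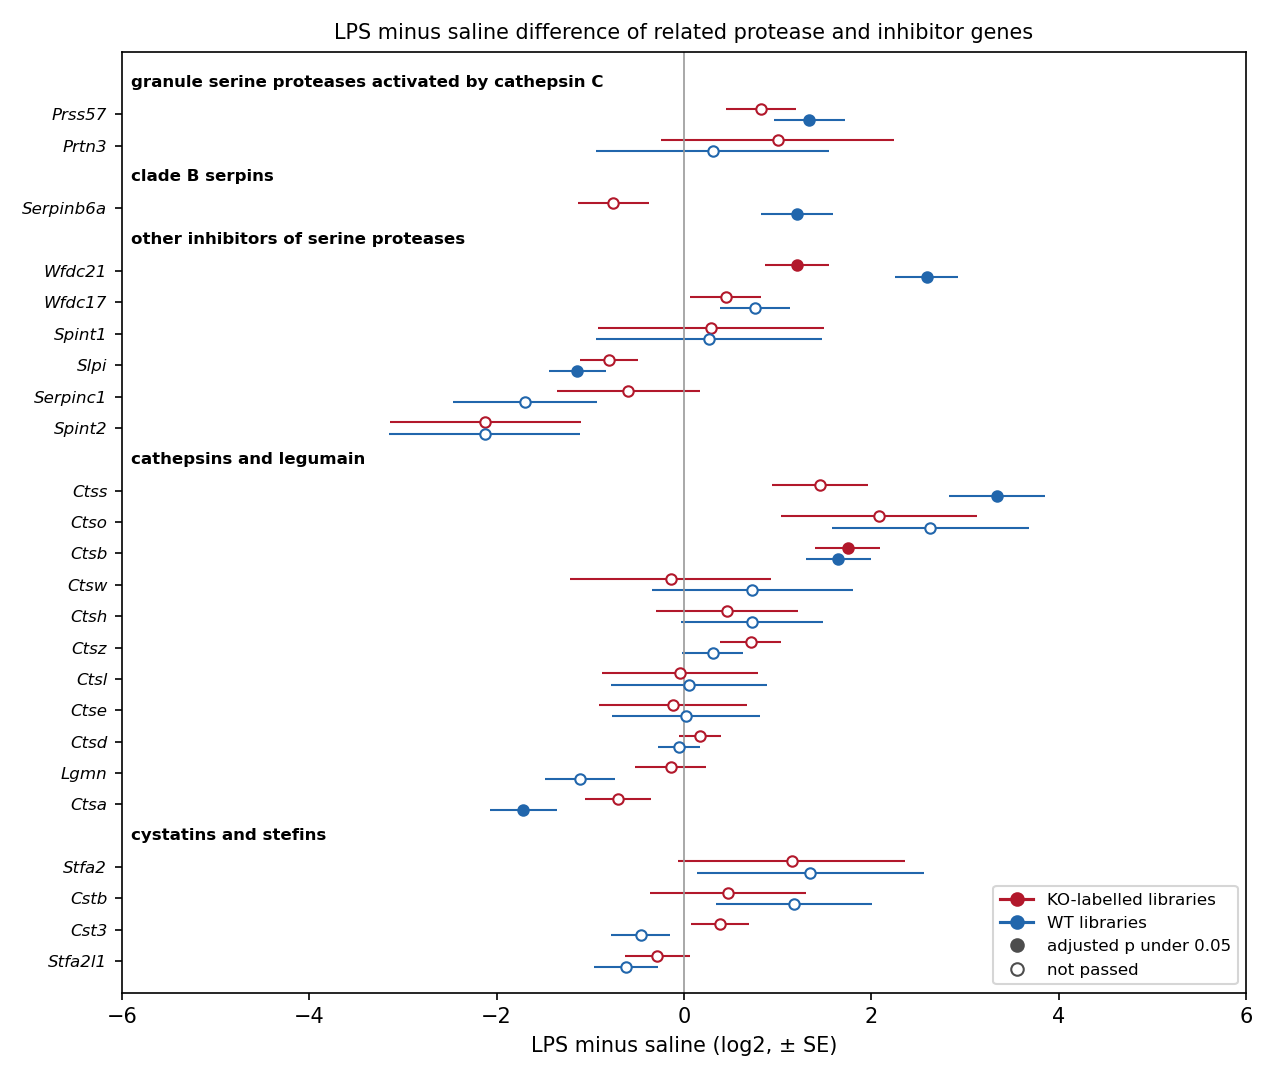
Fitted LPS minus saline difference on the log2 scale ± SE (horizontal axis) of the measured genes of 5 related lists, in KO-labelled (red) and WT (blue) libraries. Filled points passed an adjusted p of 0.05 and open points did not; Wfdc21 and Ctsb passed in both genotypes, Ctss in WT libraries with 3.34, and none of the cystatins and stefins passed.

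Genes of later granules and of neutrophil development were set beside these. Of 18 specific granule genes 17 were measured, of which 7 rose in KO-labelled and 12 in WT libraries and none fell, with median log2 differences of 1.42 in KO-labelled and 2.46 in WT libraries. In KO-labelled libraries 10 rose and 1 fell once KO-LPS replicate 1 was left out, with a median of 2.05. Lyz2 is on this list and on that of azurophil contents, and Retnlg on this list and on that of mature neutrophil markers. Ngp, neutrophilic granule protein, rose by 2.80 ± 0.55 in KO-labelled (limma, adjusted p = 0.0046) and by 5.89 ± 0.55 in WT libraries (adjusted p = 1.84e-07), and its KO call was lost without KO-Saline replicate 3 or KO-LPS replicate 2 or 3 (adjusted p up to 0.0744). Its KO difference was 3.99 ± 0.30 without KO-LPS replicate 1, and that of Cebpd, described next, was -1.53 ± 0.23. Of 11 early granulocyte regulators 10 were measured, of which 1 fell in KO-labelled libraries and 1 rose and 1 fell in WT libraries. Klf5, a zinc finger transcription factor, rose by 3.29 ± 0.81 in WT libraries (adjusted p = 0.00648, and 0.052 without WT-Saline replicate 3). Cebpd, a C/EBP transcription factor, fell in both genotypes, by 1.09 ± 0.28 in KO-labelled (adjusted p = 0.0265) and by 1.11 ± 0.28 in WT libraries (adjusted p = 0.00793), and its exons overlap Spidr on the other strand. The Cebpd call was lost in KO-labelled libraries without any KO-Saline library or KO-LPS replicate 2 or 3, and in WT libraries without WT-Saline replicate 1 or WT-LPS replicate 3. Of 15 cell cycle genes 4 were measured and none passed in either genotype, with or without voom weights, while 1 in each had an unadjusted p under 0.05. One of these, Mki67, rose in KO-labelled libraries without KO-LPS replicate 1, by 0.66 ± 0.19 (adjusted p = 0.0194). Mki67 ranked 36 by mean reads, with 425 to 1219 reads a library, while the list's measured genes went down to 2 pooled reads in KO-LPS. Whether the Mki67 reads reflect dividing cells was not tested. No gene of any list passed in the saline or the LPS comparison of KO-labelled with WT libraries, with or without voom weights.

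Fitted without limma's mean-variance trend, the calls named for Ctss, Ctsa, Wfdc21 and Ngp in WT libraries held. The others named from these lists, of Ctsb, Cebpd, Prss57, Galns, Serpinb6a, Slpi and Klf5, and those of Wfdc21 and Ngp in KO-labelled libraries, were lost, with adjusted p from 0.0609 to 0.27.

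Markers of other blood cells moved in part with LPS. All 14 mature neutrophil markers were measured, of which 2 rose and 2 fell in KO-labelled libraries and 6 rose and 3 fell in WT libraries. Each of these KO calls was lost without KO-LPS replicate 2 or 3, and also without the mean-variance trend. In KO-labelled libraries 4 rose and 3 fell when KO-LPS replicate 1 was left out. Of 14 monocyte and macrophage markers 6 were measured, and their summed level was 747 to 1147 CPM in KO-LPS against 564 to 769 CPM in KO-Saline, and 881 to 1294 CPM in WT-LPS against 484 to 612 CPM in WT-Saline. Of these, 1 rose and 1 fell in KO-labelled libraries (2 and 2 without KO-LPS replicate 1), and 2 rose and 2 fell in WT libraries. The list's median log2 difference was -0.39 in KO-labelled and -0.58 in WT libraries. In both genotypes the mean level of Cd14 and Ly6c2 was higher after LPS, and that of the other measured genes of the list was lower. Ly6c2, which neutrophil precursors also express, rose by 3.67 ± 0.45 in WT libraries (limma, adjusted p = 2.96e-06), while Apoe fell in both genotypes. The Apoe call in KO-labelled libraries was lost without any saline library or KO-LPS replicate 2 or 3 (adjusted p up to 0.26), and also without the mean-variance trend, with voom weights or with a minimum mean of 10 reads (up to 0.174).

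Ctsc and Cst7 are also known from T and NK cells. Of 15 markers of those cells 3 were measured, and their summed level was 69.1 to 136 CPM in KO-LPS against 91.1 to 176 CPM in KO-Saline, and 90.7 to 216 CPM in WT-LPS against 119 to 173 CPM in WT-Saline. None passed in KO-labelled libraries, nor had any an unadjusted p under 0.05, and 1, Tcf7, fell in WT libraries. The Tcf7 call was lost without any WT-Saline library or WT-LPS replicate 1 (adjusted p up to 0.13). Of 8 B cell markers 2 were measured, at 45.4 to 124 CPM in KO-LPS against 24.3 to 39.4 CPM in KO-Saline, and 114 to 151 CPM in WT-LPS against 18.6 to 48.6 CPM in WT-Saline, and Cd79a rose in both genotypes. Its call in KO-labelled libraries was lost without replicate 2 or 3 of KO-Saline or KO-LPS (adjusted p up to 0.196), and also without the mean-variance trend or with voom weights (up to 0.157). The other measured B cell marker had a mean of 11.4 CPM in KO-LPS against 16.4 CPM in KO-Saline. In WT-LPS its mean was 16.1 CPM against 14.4 CPM in WT-Saline. Of 8 platelet markers 3 were measured, of which 1 fell in KO-labelled (2 without KO-LPS replicate 1) and 3 in WT libraries. Hdc, the single measured marker of basophils and mast cells, had a difference of -0.57 ± 0.22 in KO-labelled libraries (limma, adjusted p = 0.174, and 0.00199 without KO-LPS replicate 1) and of -0.58 ± 0.22 in WT libraries (adjusted p = 0.0908). Its unadjusted p was under 0.05 in both, and voom weights called it in WT libraries. Alas2, the single erythroid marker measured, did not pass. The part of other cell types in the LPS differences of Serpinb1a, Ctsc and Cst7 was not tested.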

How the data were processed

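Poly(A) RNA libraries of blood neutrophils were built from RNA of the miRNeasy micro kit (Qiagen) with Tecan's Universal Plus Total RNA kit and mouse probes, per the labels' protocols. The authors deposited a table of log2 values for 9374 genes by NCBI Gene ID in 12 libraries. Whole reads came back from the deposited log2 values within 0.0001 for 100% of values, as log2 CPM with 0.5 reads added, and gave 399702 to 526757 reads a library. The genome build was mm10, per the submitters' processing notes. Aligner, counter, strand setting and gene filter: not given in the sources used here. Symbols were found for 9372 IDs.

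The deposited values were tested with limma 3.58.1 in R 4.3.3, with 4 group means over 12 libraries, a mean-variance trend, two-sided tests and Benjamini-Hochberg adjustment over all genes, called under 0.05. Ratios of pooled reads have exact 95% counting intervals. The 3 genes, the lists and the rule for named genes were chosen with earlier results of these data known. Named were the 3 genes, the 5 most alike genes of each, the measured neighbours, and from each list up to 4 called genes per comparison, or the 2 with most reads where none was called; some of these are given only in counts, and 1 is not reported here. A planned adjusted p for the 3 genes in KO-labelled libraries is not given, because that contrast may have served to choose them. Replicate numbers do not pair libraries by the labels. Alternatives are given in the closing section.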

Additional observations from a re-analysis of the deposited data

How the results depend on the processing

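All 110 alternative LPS differences of Serpinb1a, Ctsc and Cst7 were above 0, and of 272 alternative values of these genes 265 moved by less than the replicate SD. Part of them could not differ from the reported value. A library outside the comparison left out, no mean-variance trend, a replicate block or only the groups compared changed the SE alone. The LPS contrasts also chose the genes, so these counts are no measure of stability. With 2 reads added, the LPS difference on the log2 scale was 2.79 for Ctsc and 2.76 for Cst7 in KO-labelled libraries, and 3.39 for Serpinb1a and 2.51 for Cst7 in WT libraries, since low saline values are raised most. Leaving out each library in turn gave 1.11 to 3.33 for the Ctsc difference after LPS in WT libraries, -3.62 to -1.41 for Ctsc in KO-Saline minus WT-Saline, and 1.30 to 3.51 for the Ctsc response of KO-labelled minus WT libraries. The values 1.11, -3.62 and 3.51 were those without WT-Saline replicate 3, which had 0 reads. Signs of small genotype differences turned: Serpinb1a in LPS gave 0.17 without KO-LPS replicate 1, Ctsc in LPS 0.08 without WT-LPS replicate 3, Cst7 in saline -0.36 without KO-Saline replicate 3, and the Cst7 response of KO-labelled minus WT libraries -0.35 without WT-Saline replicate 1. A minimum mean of 10 reads removed Ctsc and Cst7, which then gave no value.

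The number of genes called after LPS in KO-labelled libraries was 314, against 16 without the mean-variance trend, 82 with only the groups compared, and 32 (without KO-LPS replicate 2) to 1076 (without KO-LPS replicate 1) with a library left out. In WT libraries it was 1095, against 363 without the trend and 734 to 1427 with a library left out. Between genotypes in saline it was 1, against 0 without the trend, 2 with voom weights, 4 with 2 reads added, 22 with only the groups compared and 0 to 31 with a library left out. In LPS it was 0, against 1 with voom weights and 0 to 2 with a library left out. The causes were not tested. Median-of-ratios scaling moved the median of all genes by 0.018 at most.

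Same-numbered libraries did not deviate together: the 18 correlations ran from -0.13 to 0.05, and 3 of 12 libraries correlated best with their own number. With replicate number as a block, 336 genes were called after LPS in KO-labelled and 1086 in WT libraries. Every replicate number occurs in each group, so the block could not move the estimates of the 3 genes and changed their SE alone. Ctsc had 4.62 ± 1.02 in KO-labelled libraries.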
